A study of Mus musculus with 10 samples.

Results

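Immunoglobulin transcripts were counted in every library of a mouse ovarian tumour series, at low levels that varied widely between libraries of the same group. The genes described here are the rows of the deposited count table with an immunoglobulin biotype and at least 10 counts summed over the 10 libraries, together with Jchain, Mzb1 and Tent5c. The immunoglobulin genes were thus selected on their summed counts in these libraries. This rule gave 44 of 55385 genes. They comprised 9 constant genes, 29 variable (V) genes and 3 joining (J) genes of the immunoglobulin loci, and the 3 genes added by name. Those sums are given as a description. Tent5c was put on the list with its difference between the groups known from earlier results of these data, so its values do not support the choice.

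RNA was sequenced from APV245 cells, a mouse ovarian tumour line written APC245 in the design text, where its source is given as an Arid1a and Pik3ca co-mutated tumour. Of the 10 libraries, 5 were labelled IL6 shRNA1 with the genotype IL6 knockdown, and 5 were labelled control shRNA, a non-mammalian hairpin in pLKO.1-puro. All carried no further treatment and 1 batch label. The sample labels describe cells grown in DMEM, whereas the design text describes subcutaneous tumours. The host's strain, age and sex, any pooling of animals, and whether the transduced lines were clones were not given in the sources used here. Nothing stated that replicates came from separate tumours or cultures, so p-values measure the spread between these samples. Library totals were 17905397 to 19934278 counts with IL6 shRNA1 and 18224751 to 22682346 counts with control shRNA. Il6 itself did not fall under the IL6 shRNA1 label, with 20, 37, 40, 37 and 33 counts in those libraries, against 38, 9, 48, 26 and 14 counts in control libraries 1 to 5. Its log2 fold change was 0.44 ± 0.36 (SE; edgeR quasi-likelihood test, adjusted p = 0.44), so the groups are called below by their labels.

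An antibody is built from heavy chains and kappa or lambda light chains. In each B cell, recombination joins a V and a J segment, with a D segment in the heavy chain, upstream of a constant gene. A naive B cell transcribes Ighm and Ighd, and class switching replaces them with an IgG, IgA or IgE constant gene. Plasma cells secrete antibody and hold large amounts of immunoglobulin mRNA. Because a clone keeps its rearranged V segments, reads over V genes carry information on which rearrangements are present.

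The V genes with the most counts in the series were a kappa gene of the Igkv1 family with the identifier ENSMUSG00000096336.2 (chromosome 6), and Ighv1-5, and nearly all of their counts came from control library 3. The last 300 germline bases of each are printed below because the later results turn on them. They were read from GENCODE M21 transcripts on GRCm38, with the codon of the conserved second cysteine in capitals. That cysteine lies just before the junction with J or D, and was located as the last cysteine codon after a tyrosine codon and a tyrosine or phenylalanine codon.
ENSMUSG00000096336.2 (chr6:67610209-67610508, plus strand): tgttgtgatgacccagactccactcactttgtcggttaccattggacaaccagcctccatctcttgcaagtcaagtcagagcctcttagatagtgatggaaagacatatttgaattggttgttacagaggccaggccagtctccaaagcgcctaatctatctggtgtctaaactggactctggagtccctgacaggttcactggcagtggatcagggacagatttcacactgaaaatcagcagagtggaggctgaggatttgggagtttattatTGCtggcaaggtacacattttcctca
Ighv1-5 (chr12:114513330-114513629, minus strand): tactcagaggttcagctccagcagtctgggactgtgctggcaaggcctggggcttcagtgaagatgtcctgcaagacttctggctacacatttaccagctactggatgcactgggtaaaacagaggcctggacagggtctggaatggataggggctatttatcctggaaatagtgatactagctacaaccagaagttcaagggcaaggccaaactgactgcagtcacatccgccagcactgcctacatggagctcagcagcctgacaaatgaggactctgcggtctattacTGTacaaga
After the capital codon 23 germline bases remained in ENSMUSG00000096336.2 and 6 in Ighv1-5. These are genome sequences, and the deposited counts do not show the rearranged sequences of the samples.

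The next V genes are shown because each was first or second among the heavy or the kappa V genes of IL6 shRNA1 library 4 or 5 or of control library 1 or 3. Their last 60 bases are printed with the same codon in capitals.
Ighv1-80 (chr12:115912344-115912403, minus strand): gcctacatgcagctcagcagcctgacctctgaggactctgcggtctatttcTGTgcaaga
Ighv1-12 (chr12:114615850-114615909, minus strand): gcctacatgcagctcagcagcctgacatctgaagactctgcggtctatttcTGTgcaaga
Igkv14-100 (chr6:68519418-68519477, plus strand): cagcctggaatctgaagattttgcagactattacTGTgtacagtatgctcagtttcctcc
Igkv6-23 (chr6:70260409-70260468, minus strand): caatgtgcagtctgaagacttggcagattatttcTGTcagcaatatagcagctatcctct
Igkv10-96 (chr6:68631963-68632022, minus strand): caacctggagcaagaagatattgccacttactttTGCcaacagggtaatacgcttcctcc
Igkv6-25 (chr6:70215898-70215957, plus strand): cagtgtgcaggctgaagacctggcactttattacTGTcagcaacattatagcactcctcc
The 3 heavy chain J genes on the list are short, and their whole sequences follow with the codon of the conserved tryptophan in capitals.
Ighj1 (chr12:113429781-113429833, minus strand): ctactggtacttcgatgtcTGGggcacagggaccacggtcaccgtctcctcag
Ighj3 (chr12:113429085-113429132, minus strand): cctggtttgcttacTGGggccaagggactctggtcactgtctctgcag
Ighj4 (chr12:113428514-113428567, minus strand): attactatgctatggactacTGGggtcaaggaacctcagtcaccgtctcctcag

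The J genes were 53, 48 and 54 bases long in the order printed. Ighj1 had 28 counts, Ighj3 17 and Ighj4 22 over the series. Ighj1 was counted in 6 libraries, with 5, 5, 0, 7 and 0 counts with IL6 shRNA1 and 8, 0, 2, 1 and 0 counts with control shRNA. Similar V genes can share reads, which limits how their counts are read. Of the 29 V genes, 5 had no 50-base stretch shared with another immunoglobulin transcript, and the share of unique 50-base stretches was 49.1% to 100% (median 80.3%). It was 63.5% for ENSMUSG00000096336.2 and 98.8% for Ighv1-5. The closest V gene to ENSMUSG00000096336.2 was Igkv1-133, at 91.9% identity and with 0 counts, and the closest to Ighv1-5 was Ighv1-7, at 82.7% identity and with 2 counts.

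Summed over the 41 immunoglobulin genes, the IL6 shRNA1 libraries 1 to 5 had 361, 837, 894, 1219 and 867 counts, and the control libraries 1 to 5 had 998, 152, 1764, 233 and 221 counts. Control libraries 1 and 3 thus lay within or above the range of the IL6 shRNA1 libraries, and control libraries 2, 4 and 5 lay below all of them. Scaled to a fixed library total, as CPM, these sums were 18.3, 42.0, 49.9, 62.2 and 44.4 in the IL6 shRNA1 libraries and 44.0, 7.03, 80.6, 12.2 and 12.1 in the control libraries. In all of these samples, fewer cells of a type and less RNA per cell cannot be told apart.

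The rule took 7546 of the 7856 counts on immunoglobulin rows (96.1%). Of the 432 immunoglobulin rows, 306 had no count in any library and a further 85 had a count but were below the minimum. Just inside it, with 10 counts each, were Ighv1-18, Igkv16-104, Igkv4-68, Igkv5-48 and Igkv8-21. Just outside, with 9 counts each, were Ighj2, Ighv1-53, Ighv1-76, Ighv2-2, Ighv5-4, Igkv4-72 and Iglc3. A count of 0 in a library allows a level of up to 0.132 to 0.168 CPM, depending on its depth, at a floor of 3 counts. Intervals and floors cover counting error only.

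Ighm, the constant gene of IgM (chromosome 12, 113418558 to 113422730), was the most abundant immunoglobulin gene, and Tent5c was the only gene of the 44 that passed the test. Over all 15064 genes tested, 11.8% were called at an adjusted p under 0.05, 5.62% higher and 6.16% lower in IL6 shRNA1 libraries. Of the 44 genes, 7 had enough counts to be tested. Tent5c was called higher, none was called lower by edgeR, and 6 were not called. Over all 15064 genes tested, 4693 had an unadjusted p under 0.05 by edgeR, and DESeq2 called 3027. Such a p was reached by 2 of the 7, Tent5c and Ighm, and DESeq2 called the same 2 genes higher and 0 lower. The other 37 genes, which include 36 of the 41 immunoglobulin genes, are described by counts alone.

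Ighm had 285, 521, 478, 762 and 539 counts in IL6 shRNA1 libraries 1 to 5 and 631, 137, 357, 200 and 196 counts in control libraries 1 to 5. The groups overlapped, because control libraries 1 and 3 lay within the range of the IL6 shRNA1 libraries. Its level was 26.5 ± 7.81 CPM with IL6 shRNA1 and 14.2 ± 7.71 CPM with control shRNA (SD, n = 5 each), here and below with CPM scaled by edgeR's TMM factors. The log2 fold change was 0.90 ± 0.35 (SE, 95% interval 0.12 to 1.69; edgeR, unadjusted p = 0.028, adjusted p = 0.12), and the gene did not pass the test. Without control library 1 the value was 1.28 (edgeR, adjusted p = 0.022), and DESeq2 gave 0.92 with all libraries (adjusted p = 0.034). In 18 of 20 alternatives to the main fit Ighm was not called. Its lowest value was 0.57 (edgeR, adjusted p = 0.51), without IL6 shRNA1 library 5 and control libraries 2 and 5.

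Ighm is transcribed together with Ighd (chromosome 12, 113406604 to 113416324), the constant gene of IgD, in naive B cells. Ighd had 3, 14, 11, 6 and 7 counts in the IL6 shRNA1 libraries and 17, 1, 3, 4 and 4 counts in the control libraries. It was counted in all 10 libraries and was highest in control library 1, which was also the control library with the most Ighm. It was below the minimum for testing.

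**Figure D1:**
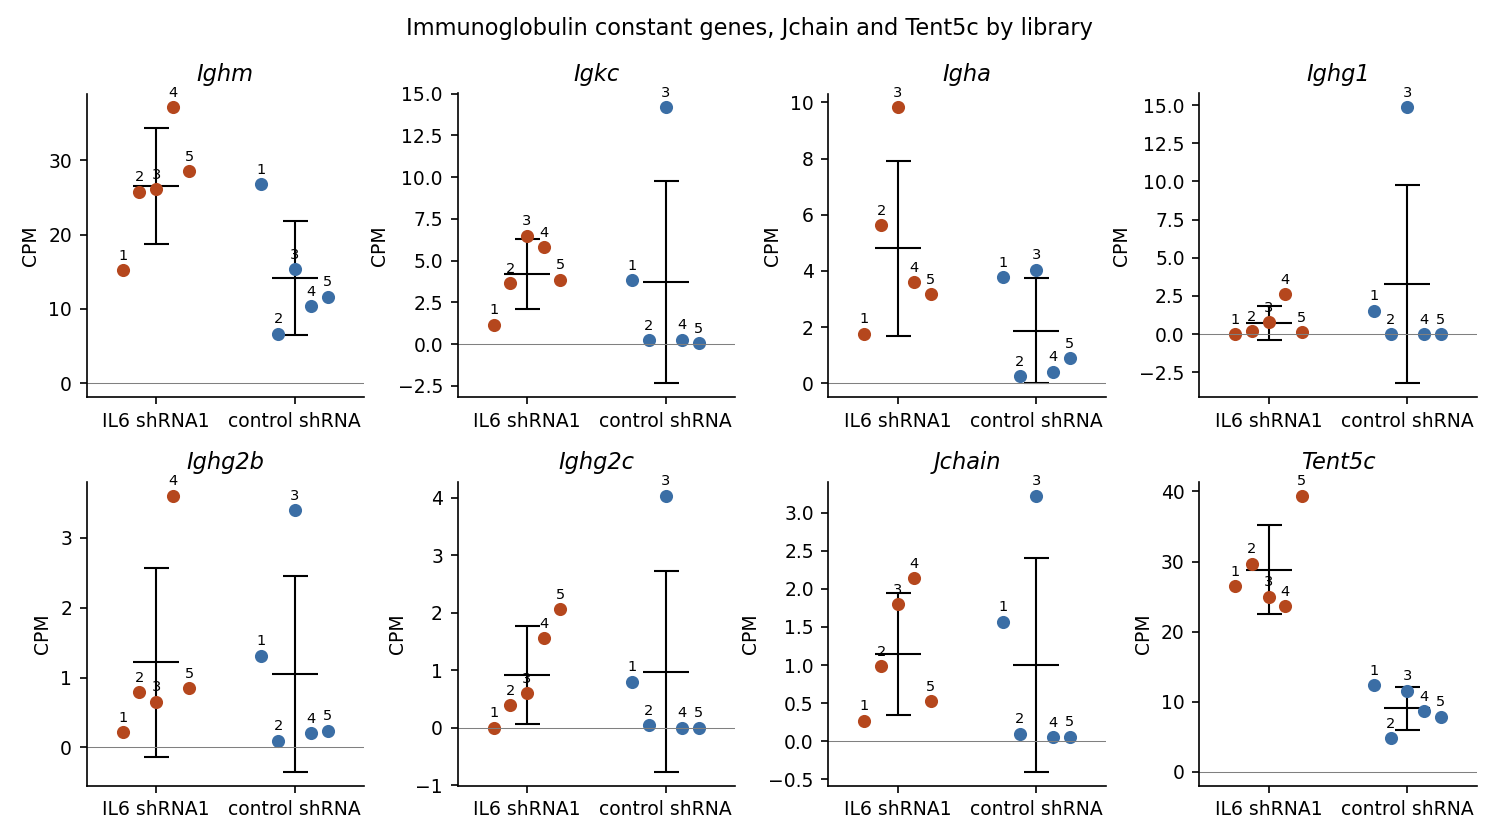
Level of the main immunoglobulin and plasma cell genes in each library, in TMM-scaled CPM, with IL6 shRNA1 libraries on the left (orange) and control shRNA libraries on the right (blue); numbers are library replicates and bars give the mean ± SD. Tent5c stood at 23.6 to 39.4 CPM with IL6 shRNA1 and 4.77 to 12.3 CPM with control shRNA, and the groups overlapped for Ighm and Igkc.

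Class-switched constant genes were carried by few libraries, and control library 3 held 346 of the 456 counts of Ighg1. This gene (chromosome 12, 113325240 to 113330523), the constant gene of IgG1, had 0, 4, 14, 54 and 2 counts in IL6 shRNA1 libraries and 36, 0, 346, 0 and 0 counts in control libraries. Among the control libraries it was thus absent from the counts of libraries 2, 4 and 5, which allows up to 3 counts in each. No other constant gene was so concentrated in 1 library.

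Ighg2b, which encodes the IgG2b constant region, had 4, 16, 12, 74 and 16 counts with IL6 shRNA1 and 31, 2, 79, 4 and 4 counts with control shRNA. Its highest libraries were IL6 shRNA1 library 4 and control library 3. The log2 fold change was 0.19 ± 0.94 (SE, 95% interval -1.90 to 2.28; edgeR, adjusted p = 0.91). Ighg2c, for IgG2c, had 0, 8, 11, 32 and 39 counts with IL6 shRNA1 and 19, 1, 94, 0 and 0 counts with control shRNA. Its highest count was again in control library 3, and its log2 fold change was -0.12 ± 1.24 (SE, 95% interval -2.89 to 2.64; edgeR, adjusted p = 0.96). These intervals were so wide that a difference of several-fold in either direction was not detectable. Without control library 3 the log2 fold change was 1.35 for Ighg2b and 1.98 for Ighg2c (edgeR, adjusted p = 0.34 and 0.31). With each single library left out in turn, Ighg2b ranged from -0.75 to 1.35 and Ighg2c from -0.64 to 1.98.

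Ighg3, for IgG3, had 1, 15, 0, 6 and 50 counts with IL6 shRNA1 and 2, 0, 4, 3 and 0 counts with control shRNA, and IL6 shRNA1 library 5 held 61.7% of the total. Unlike the other IgG genes it was low in control library 3. Igha (chromosome 12, 113254830 to 113260236), the constant gene of the mucosal antibody IgA, had the most counts of the switched genes over the series. It had 33, 114, 180, 74 and 60 counts with IL6 shRNA1 and 89, 5, 94, 8 and 15 counts with control shRNA. Its mean was 4.80 ± 3.13 CPM with IL6 shRNA1 and 1.87 ± 1.87 CPM with control shRNA (SD, n = 5 each), and the log2 fold change of 1.33 ± 0.75 did not pass the test (SE, 95% interval -0.32 to 2.99; edgeR, adjusted p = 0.25).

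As a share of the heavy chain constant counts of a library, Ighm made up 87.4%, 75.3%, 67.7%, 75.6% and 75.6% in IL6 shRNA1 libraries 1 to 5. In control libraries 1 to 5 it made up 76.5%, 93.8%, 36.5%, 91.3% and 89.5%. The means were close, 76.3% ± 7.06 with IL6 shRNA1 and 77.5% ± 23.9 with control shRNA (SD, n = 5 each), but the controls spread more because control library 3 was low and control libraries 2, 4 and 5 were above every IL6 shRNA1 library. The 4 IgG genes together made up 1.53%, 6.21%, 5.24%, 16.5% and 15.01% with IL6 shRNA1 and 10.7%, 2.05%, 53.5%, 3.20% and 1.83% with control shRNA.

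In control library 3, Ighg1 alone made up 35.4% of 977 heavy chain constant counts (Wilson 95% interval 32.5% to 38.5%). The largest share of Ighg3 in any library was 7.01%, in IL6 shRNA1 library 5. Igha averaged 13.6% ± 7.55 of heavy chain counts with IL6 shRNA1 and 6.87% ± 3.36 with control shRNA (SD, n = 5 each), with overlapping ranges. For Ighm and for the IgG sum, the spread among the control libraries was larger than the difference between the group means.

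**Figure D2:**
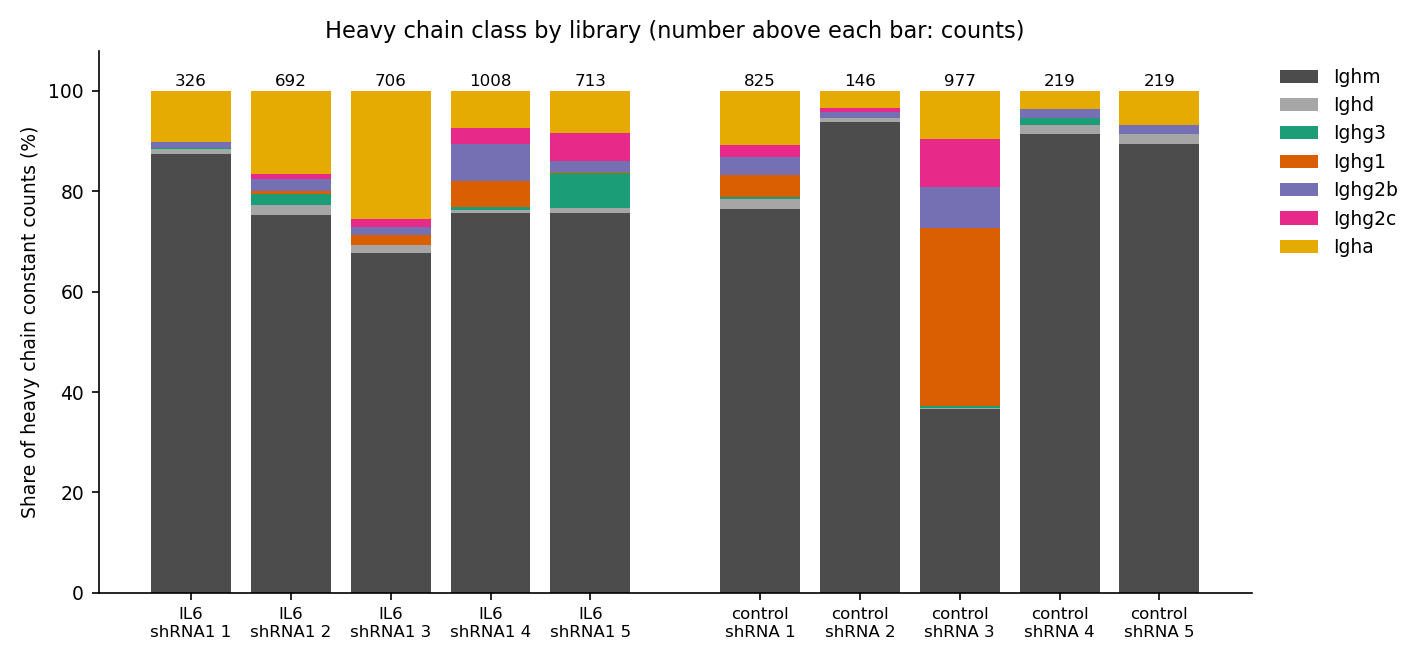
Share of heavy chain constant counts taken by each class in each library, in percent, with IL6 shRNA1 libraries on the left and control shRNA libraries on the right; each bar adds to the total of that library. Ighm fills most of every bar except that of control library 3, where the IgG genes hold 53.5%.

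Igkc, the single constant gene of kappa light chains (chromosome 6, 70726435 to 70726966), was nearly absent from 3 control libraries in which Ighm was still counted. It had 22, 74, 119, 119 and 73 counts with IL6 shRNA1 and 90, 5, 330, 5 and 1 counts with control shRNA. Control library 3 was the highest of all and control libraries 2, 4 and 5 the lowest, so the group of controls enclosed the IL6 shRNA1 libraries. The mean was 4.20 ± 2.08 CPM with IL6 shRNA1 and 3.71 ± 6.06 CPM with control shRNA (SD, n = 5 each). On the log2 scale the difference was 0.16 ± 1.09 (SE, 95% interval -2.26 to 2.59; edgeR, adjusted p = 0.94), and it was 1.89 without control library 3 (edgeR, adjusted p = 0.22). With each single library left out in turn, the difference ranged from -0.14 to 1.89. A long noncoding gene, Gm30211, overlaps Igkc on the same strand and had 8 counts in all.

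The number of Ighm counts per Igkc count was 12.96, 7.04, 4.02, 6.40 and 7.38 in the IL6 shRNA1 libraries. In the control libraries it was 7.01, 27.4, 1.08, 40.0 and 196. The ratio was highest in the control libraries with the fewest Igkc counts, which are its divisor, so this order is no separate result. On the FPKM scale, which divides by gene length, it was 1.13 to 3.65 with IL6 shRNA1 and 0.305 to 55.3 with control shRNA. The last of these values rests on 1 Igkc count.

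Lambda light chains were a small part of the light chain counts. Over all libraries, kappa held 838 counts and the 3 lambda constant genes 36 counts, or 4.12% of the sum. The only lambda constant gene on the list, Iglc1, had 0, 1, 2, 2 and 1 counts with IL6 shRNA1 and 3, 0, 10, 0 and 1 counts with control shRNA. Iglv1, the only lambda V gene on the list, had 36 counts, of which 21 were in control library 3.

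V genes were spread over many rows in most libraries that had them, and a pair of genes dominated control library 3. The 29 V genes had 7, 59, 61, 73 and 80 counts with IL6 shRNA1 and 64, 1, 442, 3 and 0 counts with control shRNA. They made up 25.1% of the immunoglobulin counts in control library 3, and at most 9.23% in any other library. These shares depend on the minimum of 10 counts. It kept 442 of the 491 counts on all V rows in control library 3. In IL6 shRNA1 library 3 it kept 61 of 126, and in control library 1 it kept 64 of 106. Of them, 14 were heavy chain genes with 307 counts, 14 were kappa genes with 447 counts and 1 was a lambda gene.

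In control library 3, ENSMUSG00000096336.2 had 154 counts, which was 57.7% of the kappa V counts of that library, and Ighv1-5 had 93 counts, 46.5% of the heavy V counts. Outside that library ENSMUSG00000096336.2 had 2 counts in IL6 shRNA1 library 2, 2 in IL6 shRNA1 library 3 and 1 in control library 4, and Ighv1-5 had 1 count in IL6 shRNA1 library 3. The last 300 bases of both genes are printed above. Ighv3-6 and Igkv8-27, with 20 counts each, Igkv8-30, with 15, and Ighv1-55 and Ighv8-8, with 14 each, were also highest there. Igkv10-96 had 1, 8, 4, 21 and 0 counts with IL6 shRNA1 and 2, 0, 43, 0 and 0 counts with control shRNA. It was thus counted in 6 libraries and was highest in the same control library.

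Most other libraries had other leading V genes. In IL6 shRNA1 library 5, Ighv1-80 had 15 of its 18 counts, and Ighv1-81 had 11, Igkv14-100 had 12, Igkv1-110 had 10 and Igkv6-25 had 10 counts. IL6 shRNA1 library 4 led with Igkv10-96 at 21 counts, the gene that was second among the kappa V genes of control library 3. It also held 18 of 27 counts of Igkv6-23 and 11 of 12 counts of Ighv1-12. Control library 1 led with Igkv6-25 at 11 counts, Ighv1-82 at 8 and Igkv4-68 at 8. IL6 shRNA1 library 2 led with Ighv1-18 and Igkv8-21, at 9 counts each, and IL6 shRNA1 library 3 with Ighv1-76, also at 9. In IL6 shRNA1 library 1 and in control libraries 2, 4 and 5 no V gene had more than 3 counts.

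Of the 29 V genes, 20 had more than 50% of their counts in 1 library, 13 were highest in control library 3 and 0 were counted in every library. None of the 29 was counted in more than 6 libraries. The minimum for the list was set on sums that include control library 3, so a V gene could enter the list through that library alone. These numbers therefore describe the listed genes, and how often the other counted V rows were highest in control library 3 was not tested. The number of V rows with at least 1 count was 9, 39, 53, 37 and 24 with IL6 shRNA1 and 42, 5, 43, 7 and 2 with control shRNA. At these counts, a V gene with 0 counts in a library was not detectable at this depth.

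**Figure D3:**
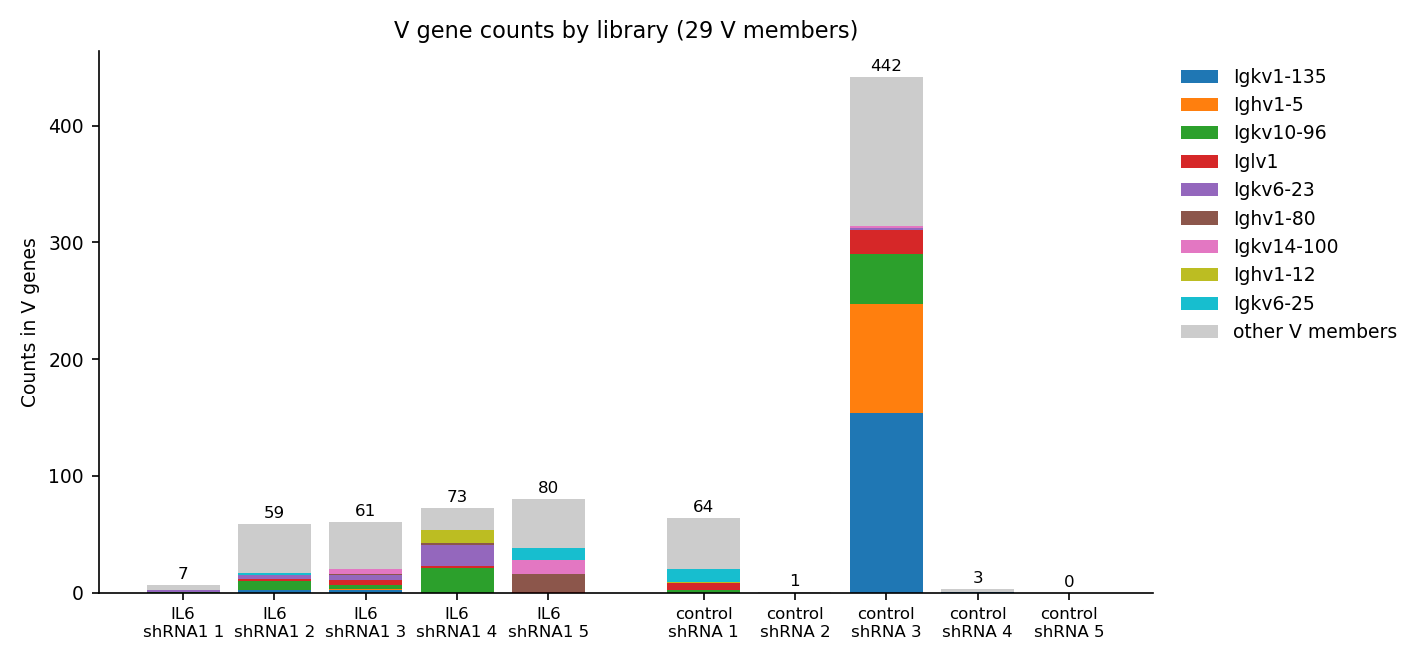
Counts of the 29 V genes in each library (stacked, with the total above each bar and the V genes of lower counts in grey), with IL6 shRNA1 libraries on the left and control shRNA libraries on the right. In control library 3 the blue segment at the base is ENSMUSG00000096336.2 (154 counts) and the orange one Ighv1-5 (93 counts).

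Of the 3 genes outside the immunoglobulin loci, Jchain (chromosome 5, 88519809 to 88527891), the chain that links IgA and IgM into polymers, was correlated with Igkc from library to library. It had 5, 20, 33, 44 and 10 counts with IL6 shRNA1 and 37, 2, 75, 1 and 1 counts with control shRNA. Across the 10 libraries, its log2 CPM with 0.5 added correlated with that of Igkc at Pearson's r = 0.95 (permutation p = 1e-05, the smallest the 100000 permutations can give; 5e-05 adjusted over 5 relations) and Spearman's rho = 0.92 (permutation, adjusted p = 0.0022). Without control libraries 5 and 2, the farthest from the median of Igkc, r was 0.94.

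Jchain averaged 1.15 ± 0.81 CPM with IL6 shRNA1 and 1.00 ± 1.40 CPM with control shRNA (SD, n = 5 each), and its log2 fold change was 0.16 ± 0.98 (SE, 95% interval -2.02 to 2.34; edgeR, adjusted p = 0.93). Without control library 3 it was 1.28 (edgeR, adjusted p = 0.40), and with each single library left out in turn it ranged from -0.19 to 1.28. Mzb1, an endoplasmic reticulum protein that helps B cells and plasma cells assemble antibody, had 0, 3, 2, 0 and 0 counts with IL6 shRNA1 and 1, 0, 1, 0 and 0 counts with control shRNA. These 7 counts gave no order between the groups.

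For Ighm against Igkc the correlation was r = 0.73 (permutation, adjusted p = 0.041) and rho = 0.71 (adjusted p = 0.067), and r was 0.55 without control libraries 5 and 2. No p was computed without those libraries. Ptprc, the leukocyte antigen CD45, gave r = 0.69 (permutation, adjusted p = 0.041) and rho = 0.59, and r of 0.36 without them. Tent5c and Mzb1 gave r = 0.57 and 0.49 (permutation, adjusted p = 0.10 and 0.17), which did not pass. Differences between these correlations were not tested.

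**Figure D4:**
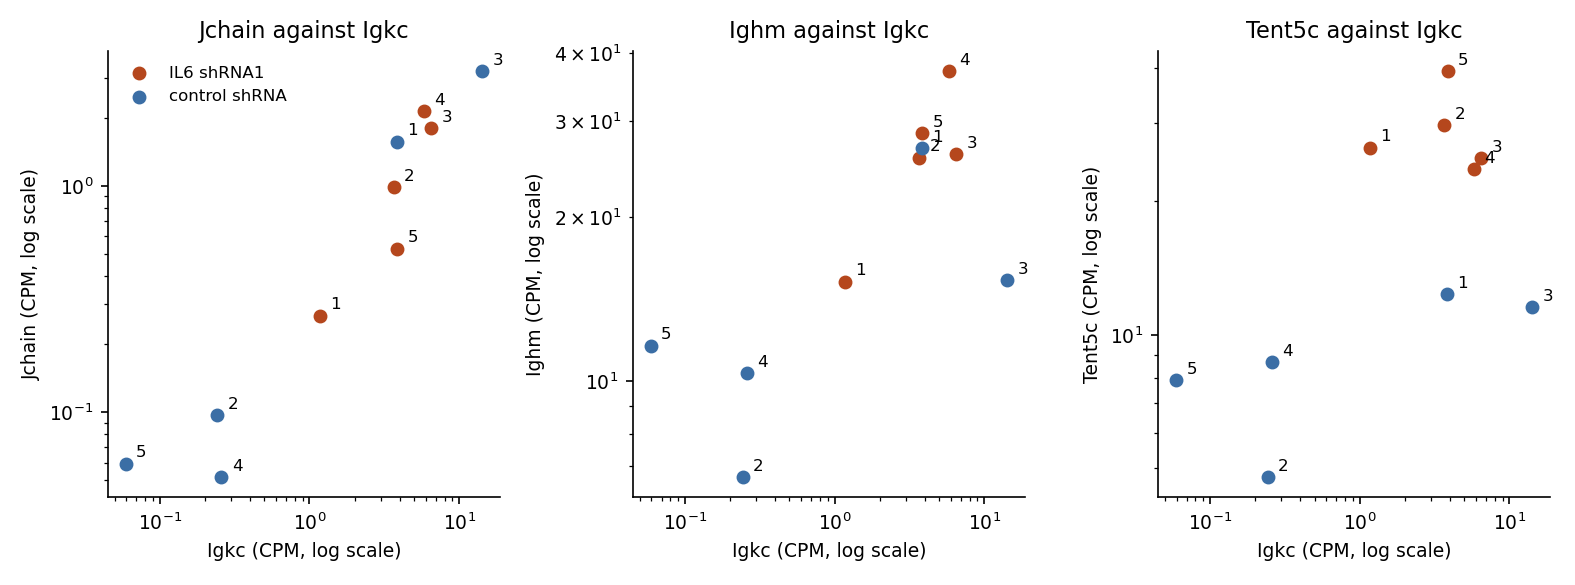
Level of Jchain, Ighm and Tent5c against Igkc in the 10 libraries, in CPM on log axes, with numbers for library replicates, IL6 shRNA1 libraries in orange and control shRNA libraries in blue. Jchain is higher where Igkc is higher (r = 0.95), while every IL6 shRNA1 point lies above every control point for Tent5c.

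Tent5c (chromosome 3, 100451628 to 100489324) encodes a poly(A) polymerase, known in mouse to extend the tails of immunoglobulin mRNAs in plasma cells, and it was higher with IL6 shRNA1. It had 495, 601, 458, 485 and 744 counts in IL6 shRNA1 libraries 1 to 5 and 291, 98, 269, 168 and 133 counts in control libraries 1 to 5. Every IL6 shRNA1 library was above every control library, as was the case, in either direction, for 10.9% of the genes tested. The mean was 28.8 ± 6.31 CPM with IL6 shRNA1 and 9.05 ± 3.04 CPM with control shRNA (SD, n = 5 each). On the log2 scale the difference was 1.67 ± 0.24 (SE, 95% interval 1.14 to 2.20; edgeR, adjusted p = 0.0034), a 3.18-fold difference.

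Control libraries 2, 4 and 5, with the fewest Igkc counts, also had the fewest Tent5c counts. Elsewhere the order differed: IL6 shRNA1 library 1 had 22 counts of Igkc and 495 of Tent5c, and control library 3 had 330 counts of Igkc and 269 of Tent5c. Tent5c is also expressed in cells outside the B lineage, and which cells gave its counts was not tested. Macrophage and other myeloid markers, summed over 18 genes, stood at 4196 to 8877 CPM with IL6 shRNA1 and 1480 to 4537 CPM with control shRNA. By edgeR 9 of the 18 were called higher, against 5.62% of all genes tested, and 15 had an unadjusted p under 0.05. DESeq2 called 15 higher and limma voom 11, against 1653 and 916 of all 15064 genes tested. Without the 3 libraries farthest out on the first principal component, IL6 shRNA1 library 5 and control libraries 2 and 5, Tent5c was still called and 0 of the 18 myeloid markers were (edgeR; 9 at an unadjusted p under 0.05). In that fit 212 of all 15373 genes tested were called, so the loss of the myeloid calls cannot separate Tent5c from myeloid content. The part of myeloid cells in the Tent5c difference was not tested.

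**Figure D5:**
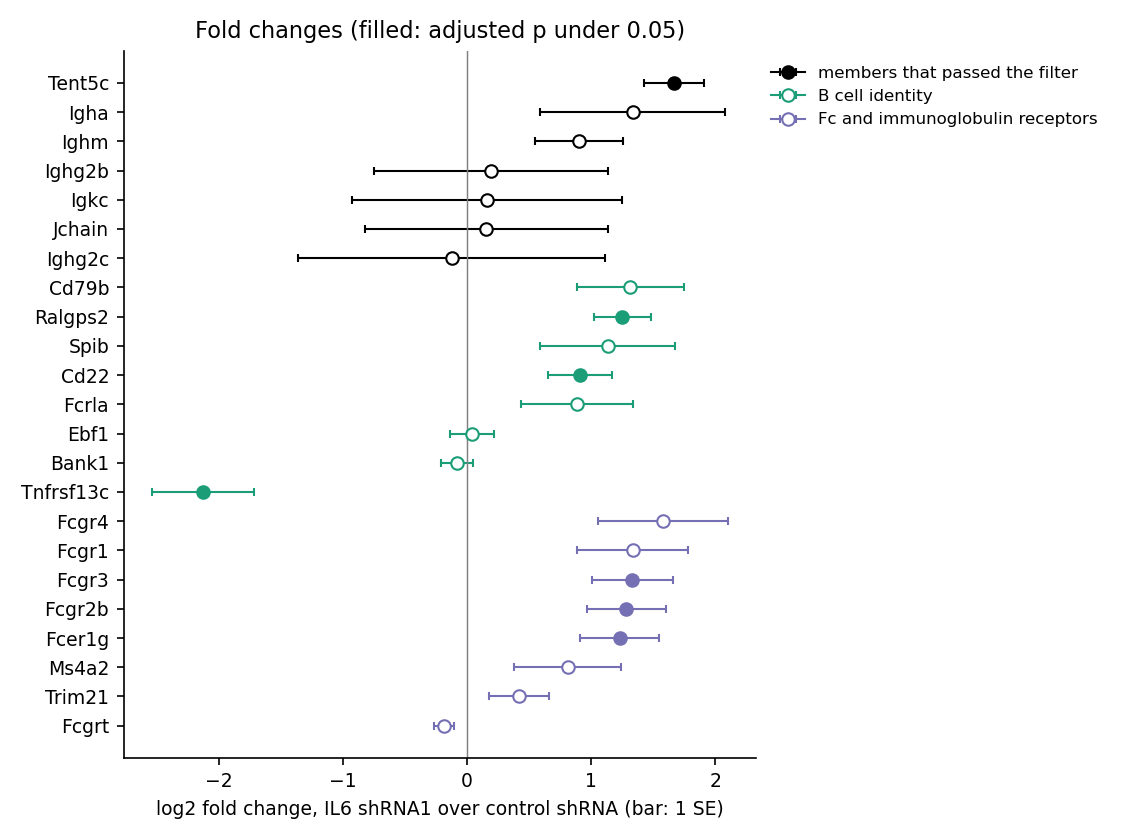
Log2 fold change (IL6 shRNA1 over control shRNA) of the 7 of the 44 genes that could be tested (black), of B cell identity genes (green) and of Fc and immunoglobulin receptors (purple), with bars of 1 SE and filled points for an adjusted p under 0.05. Of the 7 black genes Tent5c alone is filled, at 1.67, and the bars of Igkc, Jchain, Ighg2b and Ighg2c cross 0.

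The gene lists that follow were chosen with earlier results of these data known, and none of their calls remained without those 3 libraries. Their counts stand beside 4693 of all 15064 genes at an unadjusted p under 0.05 by edgeR. Over all genes, DESeq2 called 3027 and limma voom 1866. Some genes that mark the B lineage beside the immunoglobulins were low, and others on the same lists were not. Ebf1 had 1999 counts in all, Bank1 1193 and Cd22 952. The low genes shown next were chosen after their values were seen. Ms4a1, which encodes CD20, had 3, 7, 5, 11 and 3 counts with IL6 shRNA1 and 1, 0, 3, 0 and 0 counts with control shRNA. Tnfrsf17, the plasma cell receptor BCMA, had 1 count in all, in control library 1, and Pou2af1, a B cell coactivator, had 21 in all. By contrast Sdc1 averaged 346 CPM with IL6 shRNA1 and 322 CPM with control shRNA, and Xbp1 averaged 201 CPM with IL6 shRNA1 and 207 CPM with control shRNA. Both are used as plasma cell markers and are also expressed by epithelial cells.

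Of 18 genes of B cell identity, 8 could be tested. By edgeR 2 were called higher and 1 lower, against the background of 5.62% and 6.16%, and 4 had an unadjusted p under 0.05. DESeq2 and limma voom each called 3 higher and 1 lower. The median log2 fold change of the 8 genes was 0.90, against -0.01 over all genes tested. Cd22, an inhibitory receptor of B cells, had a log2 fold change of 0.91 (edgeR, adjusted p = 0.045), Ralgps2 1.25 (adjusted p = 0.0082) and Tnfrsf13c, the BAFF receptor, -2.13 (adjusted p = 0.010). Cd79b, which signals for the B cell receptor, was not called by edgeR (adjusted p = 0.068). The most abundant of the list, Ebf1 and Bank1, had log2 fold changes of 0.04 and -0.08, and were not called.

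Of 25 genes of the plasma cell programme, which includes genes of the secretory pathway, 22 could be tested. By edgeR 1 was called higher and 1 lower, against the background of 5.62% and 6.16%, and 10 had an unadjusted p under 0.05. DESeq2 called 4 higher and 1 lower, and limma voom 2 higher and 1 lower. Herpud1, a stress-induced protein of the endoplasmic reticulum, was called higher (log2 fold change 0.64; edgeR, adjusted p = 0.0034) and Derl3, of the degradation machinery there, lower (-1.09; adjusted p = 0.025), with a median of 0.11. The chaperones Hspa5 and Hsp90b1, the most abundant of the list, were not called.

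Lists for other stages of the B lineage gave 0 calls by edgeR. Of 8 tested genes of germinal centre and class switch, 1 had an unadjusted p under 0.05, DESeq2 called 1 and limma voom 0, with a median log2 fold change of -0.06. Of 4 tested genes of pre-B cells and V(D)J recombination, 2 had an unadjusted p under 0.05 and DESeq2 and limma voom called 1 each, with a median of 0.19. Rag2, part of the recombinase, and Vpreb2, part of the surrogate light chain, had no count in any library. Of 10 tested niche factors of B cells and plasma cells, among them the chemokine Cxcl12 and the adhesion molecule Vcam1, 2 had an unadjusted p under 0.05 and DESeq2 and limma voom called 1 each, with a median of 0.52.

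Fc receptors, which bind the constant part of antibodies on myeloid cells, were the list with the highest median, 1.26. Of 12 genes 8 could be tested, and 6 had an unadjusted p under 0.05 by edgeR. DESeq2 called 5 higher and limma voom 4. By edgeR 3 were called higher, against the background of 5.62% over all genes tested. These were Fcgr2b (log2 fold change 1.29; edgeR, adjusted p = 0.031), Fcgr3 (1.33; adjusted p = 0.030) and Fcer1g (1.23; adjusted p = 0.037). Summed over the list they stood at 302 to 564 CPM with IL6 shRNA1 and 166 to 339 CPM with control shRNA. The myeloid markers above had a median of 1.05, and C1qa, C1qb, Csf1r and Lyz2 were among those called. T and NK cell markers, of which 14 of 15 could be tested and 0 were called by edgeR, DESeq2 or limma voom (4 at an unadjusted p under 0.05 by edgeR), had a median of 0.88 and stood at 54.6 to 92.8 CPM with IL6 shRNA1 and 39.4 to 77.4 CPM with control shRNA. Ptprc averaged 106 ± 24.1 CPM with IL6 shRNA1 and 58.3 ± 27.7 CPM with control shRNA (SD, n = 5 each). The part of these cell types in the immunoglobulin levels was not tested.

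By rank correlation over the 10 libraries, the genes most like Igkc outside the list were E330020D12Rik (rho 0.99), Dgkz (0.98), Hepacam2, Gusb, Trbc2, Sdcbp2, Mtarc1, Hsh2d, Itpripl1 and Gm13461, the last with rho 0.90. The median over all tested genes was -0.03. Trbc2 encodes a constant part of the T cell receptor. These genes have the 10 largest rho values of a search over all tested genes outside the list, and no p was computed. Some were low, with means of 0.497 CPM for E330020D12Rik and 0.474 CPM for Mtarc1, while Dgkz averaged 104 CPM. The values share libraries and depth, and the genes are not independent.

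Libraries also differed along the first principal component, which held 53.6% of the variance. Control libraries 2 and 5, which lay farthest out on it together with IL6 shRNA1 library 5, were among the 3 libraries with the fewest Igkc counts. Without these libraries, 212 of all genes tested were called, against 1775 with every library, and of the 44 genes Tent5c was the only gene called.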

How the data were processed

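RNA from 5 libraries labelled IL6 shRNA1 and 5 labelled control shRNA was analysed from the deposited tables. Raw, unscaled counts of 55385 genes, as whole numbers, make up the count table that the authors deposited. The deposited FPKM table from the authors scales each count by gene length and column total, which the values match with a largest relative deviation of 9.4e-07. Per the submitters' processing notes, the tools were STAR 2.7.0f, featureCounts of Subread 1.6.4, Trim Galore 0.6.6, FastQC 0.11.9, R 4.0.4 and SAMtools 1.11, with the builds GRCm38 and mm10. The annotation release, the strand setting and the treatment of reads that match several genes were not given in the sources used here; V genes with near-identical copies are therefore uncertain, and without strand, antisense reads cannot be told apart.

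Counts were tested in R 4.3.3 with edgeR 4.0.16: filterByExpr by group (minimum count 10), TMM scaling, glmQLFit with robust dispersion, glmQLFTest on the group, and Benjamini-Hochberg adjustment over the 15064 genes tested, with calls at an adjusted p under 0.05. The fit was tested on simulated data. Depth was 17905397 to 22682346 counts per library. No libraries were identical. Correlations used log2 CPM plus 0.5 with 100000 permutations in scipy 1.17.1. Alternatives were RLE size factors, scaling without immunoglobulin rows, no filter, DESeq2 1.42.0, limma 3.58.1 with voom or on log2 FPKM plus 1 or 0.1, no robust dispersion, the title number as a block, each library left out, and the 3 libraries farthest on the first principal component left out.

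The members and gene lists were chosen with earlier results of these data known. The genes named were Il6, the constant genes, Jchain, Mzb1 and Tent5c, the most abundant V and J genes, the V gene with the most counts in each library, called members, called or abundant genes of each list, and the 10 genes most like Igkc; Ms4a1, Cd79b, Tnfrsf17, Pou2af1, Sdc1, Xbp1 and Ptprc are shown as markers, chosen after their values were seen. Of the genes on the lists, 1 is not reported here. Sequences came from GENCODE M21 transcripts, which held 98.4% of the gene identifiers, 41 of the 41 immunoglobulin genes included.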

Additional observations from a re-analysis of the deposited data

Results flagged for a closer look

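Of 53 groups of 5 libraries tested for a library that stood apart (gap to the nearest library over 0.71 of the group's range), 23 had such a library, and in 14 of these it was control library 3. The V genes among these items were chosen by their mean CPM in these same libraries, so a gene carried by 1 library could enter through that library. Many of these groups also hold libraries at 0 counts. The number of such groups can therefore not be compared with a chance rate.

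In control library 3, Igkc was 14.2 CPM, Ighg1 14.9 CPM and Ighg2c 4.04 CPM, each the highest of the control libraries and far from the next. The V genes that stood apart there were the kappa gene ENSMUSG00000096336.2 at 6.61 CPM, Ighv1-5 at 3.99 CPM, Igkv10-96 at 1.85 CPM, Iglv1 at 0.902 CPM, Ighv3-6 and Igkv8-27 at 0.859 CPM each, Igkv8-30 at 0.644 CPM, and Ighv1-55 and Ighv8-8 at 0.601 CPM each. The IgG genes made up 53.5% of heavy chain constant counts and V genes 25.1% of immunoglobulin counts in that library, and both shares stood apart from the other control libraries.

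Other libraries stood apart for fewer genes. IL6 shRNA1 library 5 was far above the rest of its group for Ighg3 (2.65 CPM), Ighv1-80 (0.794 CPM) and Igkv6-25 (0.529 CPM). IL6 shRNA1 library 4 stood apart for Ighg2b (3.60 CPM), Igkv6-23 (0.876 CPM) and Ighv8-8 (0.195 CPM). Control library 1 stood apart for Ighd (0.721 CPM), Ighj1 (0.339 CPM) and Igkv6-25 (0.467 CPM).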

How the results depend on the processing

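Tent5c was called higher in all 20 alternatives, with log2 fold changes of 1.21 to 1.82 and adjusted p of 1.8e-09 to 0.029. The number of the 44 genes called higher was 1 in every alternative except DESeq2 and the omission of control library 1, with 2 each, so the omission of single libraries gave 1 to 2; the added gene was Ighm. No gene of the 44 was called lower in any alternative. Ighm ranged from 0.57 to 1.28 (adjusted p 0.022 to 0.51) and Igha from 0.72 to 1.83 (adjusted p 0.13 to 0.62), both positive throughout.

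The direction of the other 4 was not stable. Ighg2c turned positive with limma voom (1.41), the replicate block (0.79), log2 FPKM plus 1 (0.11) and plus 0.1 (0.78), and was -0.64 to 1.98 when single libraries were left out. Without the 3 libraries farthest on the first principal component, Jchain was -0.33, Igkc -0.51 and Ighg2b -0.32. With single libraries left out, Jchain was -0.19 to 1.28, Igkc -0.14 to 1.89 and Ighg2b -0.75 to 1.35. The cause was not tested.

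Of all genes, 1775 were called, against 3027 with DESeq2, 755 with the replicate block, 212 without the 3 libraries and 864 to 2774 with single libraries left out. The title numbers did not pair the libraries: same-numbered libraries deviated together at correlations of -0.279 to 0.264, and under the block Tent5c was 1.71 (adjusted p = 0.029). The counts of most V genes were too low to show a difference.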
